A study of Mus musculus with 96 samples.

Results

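The serpins, a superfamily of proteins most of which inhibit serine proteases, were followed across gonadal fat and liver of 48 mice. The members were all genes whose probe symbol began with Serpin: 62 probes for 48 genes, out of 17658 genes that the array annotation named by 1 symbol. Where a gene had several probes, the one with the highest mean over all arrays stood for it. By textbook role, 12 genes encoded hepatic plasma serpins, 3 encoded stromal serpins, 23 belonged to the intracellular clade B, and 10 fell in none of these groups. Of the 48 genes, 17 lie on chromosome 12, 12 each on chromosomes 1 and 13, and 1, Serping1, on chromosome 2.

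The animals came from the F2 generation of a cross between M16i and MB2 (M16i x MB2), were 15 weeks old, and the study measured transcripts in order to find loci that control them, with its title pointing to chromosome 2 and obesity. Each mouse gave 1 gonadal fat and 1 liver array, 96 Illumina bead arrays in all. Each tissue held 24 females and 24 males, and 12 arrays of each haplotype class, numbered 1 to 4 in the labels, with 6 of each sex. The labels do not say which parental segments a class carries, and they name no treatment. Arrays had been scanned on 4 days per tissue, fat on days 3, 4, 7 and 8 and liver on days 1, 2, 5 and 6, so that scanning day cannot be told apart from tissue. On any 1 day, a given class was represented by a single sex.

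A serpin inhibits by presenting a reactive loop to its target protease, which cuts the loop and is then trapped in a covalent complex. The liver secretes most of the serpins of blood plasma, which restrain leukocyte elastase, thrombin, plasmin and other proteases of coagulation, and a few of them carry hormones instead. Fibroblasts and other connective tissue cells make a second set, and clade B members work inside cells. White fat is rich in collagen-producing stroma, and it is also the tissue in which vaspin was described in the rat.

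Signals were normalized with neqc in limma and are given on the log2 scale, on which 1 unit is a doubling and the background lies near 6. A probe counted as detected on an array at a detection p under 0.01, and a gene was tested where its probe was detected on at least 12 arrays. That minimum was reached by 16 of the 48 genes in liver and by 8 in fat, all 8 among the 16. The 32 genes that did not reach it in either tissue had mean levels of 5.82 to 6.14 in fat and 5.82 to 6.17 in liver, and 25 serpin genes were detected on none of the 96 arrays. In clade B, 22 of 23 genes stayed under the minimum, Serpinb6a being the exception. The probe for Serpinc1, antithrombin, a plasma serpin made by hepatocytes, was detected on 0 of 96 arrays, liver included, so that it measures nothing here. Detected probes numbered 6582 to 10002 on the fat arrays and 5519 to 9060 on the liver arrays. In bulk tissue, fewer cells of a type and less RNA per cell cannot be told apart.

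RefSeq (GRCm38.p6) promoter sequences were found for 13 of the 16 tested genes. The 5 shown are of the genes on which the tissue and sex comparisons turn, each as the 250 bases before the gene's start, 5′ to 3′ on the strand of the gene. Capitals mark the matches of the motifs listed after them.
Serpina1b, α1-antitrypsin, chr12:103738190-103738439, minus strand: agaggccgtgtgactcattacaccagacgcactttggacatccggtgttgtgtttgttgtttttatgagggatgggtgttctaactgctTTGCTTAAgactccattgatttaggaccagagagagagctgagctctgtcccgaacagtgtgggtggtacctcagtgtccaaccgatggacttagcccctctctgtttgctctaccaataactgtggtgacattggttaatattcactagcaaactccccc
Serpinf2, α2-antiplasmin, chr11:75439502-75439751, minus strand: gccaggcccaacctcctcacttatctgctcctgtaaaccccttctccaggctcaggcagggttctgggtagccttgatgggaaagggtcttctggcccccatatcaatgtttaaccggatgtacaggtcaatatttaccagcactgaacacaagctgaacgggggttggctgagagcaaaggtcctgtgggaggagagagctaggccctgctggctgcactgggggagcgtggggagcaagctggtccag
Serpina12, vaspin, chr12:104044444-104044693, minus strand: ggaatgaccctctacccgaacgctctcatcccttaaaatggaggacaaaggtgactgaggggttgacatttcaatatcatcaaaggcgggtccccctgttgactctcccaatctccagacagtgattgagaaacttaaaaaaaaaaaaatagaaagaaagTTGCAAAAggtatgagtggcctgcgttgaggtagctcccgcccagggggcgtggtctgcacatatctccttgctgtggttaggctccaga
Serpina3n, an acute-phase serpin, chr12:104406458-104406707, plus strand: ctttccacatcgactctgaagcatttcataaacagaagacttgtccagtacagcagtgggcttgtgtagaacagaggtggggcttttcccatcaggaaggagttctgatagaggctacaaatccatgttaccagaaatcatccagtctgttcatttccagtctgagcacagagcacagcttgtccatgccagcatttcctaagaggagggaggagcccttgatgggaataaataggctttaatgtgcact
Serpinh1, the collagen chaperone, chr7:99353240-99353489, minus strand: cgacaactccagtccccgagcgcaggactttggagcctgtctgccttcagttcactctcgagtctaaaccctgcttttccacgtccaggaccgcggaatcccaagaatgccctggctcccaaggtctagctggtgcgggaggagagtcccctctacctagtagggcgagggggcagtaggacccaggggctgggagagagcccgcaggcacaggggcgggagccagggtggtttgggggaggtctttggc
Motifs were searched on both strands of these 250 bases in the 13 serpin promoters and in all 32851 promoters of the table. TTNNGCAA, a loose C/EBP core, was in 5 of the 13, namely Serpina1b, Serpina1d, Serpina1e, Serpina7 and Serpina12, and in 9.56% of all promoters. The first 3 of those are close copies of one another. TTCNNNGAA, the STAT palindrome, was in 2 of 13 (Serpina11 and Serpinb6a) and in 7.02% of all. GAAANNGAA, an interferon response core, and TTCNNGAA, a pair of heat shock units, were each in 1 of 13, Serpinb6a, and in 7.13% and 7.17% of all. TATAAA was in 1 of 13, Serpina7, and in 12.4% of all. None of the 13 held GTTAATNAT (HNF1), CAAAGTCCA (HNF4) or TTGCGCAA (the C/EBP palindrome, each match of which also matches TTNNGCAA), which 0.737%, 0.384% and 0.164% of all promoters held. Only exact letters were counted, so that near matches were not, such as gttaatatt in the Serpina1b sequence above, 1 letter off GTTAATNAT. A match is a stretch of letters and not a shown binding site.

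The first comparison set fat against liver. Of the 16 tested serpin genes, 8 reached the detection minimum in both tissues, and of these 6 were lower and 2 higher in fat. Over all 11718 probes tested, 38.8% were lower in fat (higher in liver) and 47.9% were higher in fat, and over the 7376 probes that reached the minimum in both tissues the shares were 41.8% and 43.2%, so that a difference between these tissues is the rule for any detected gene. The other 8 serpins, namely Serpina10, Serpina11, Serpina12, Serpina1e, Serpina6, Serpina7, Serpind1 and Serpinf2, were detected on 0 fat arrays and were tested through liver alone. A lower level in fat was thus built into their selection, and they are described by their values and bounds only. The 3 stromal serpins, all measured in both tissues, split, with 1 higher and 2 lower in fat.

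**Figure D1:**
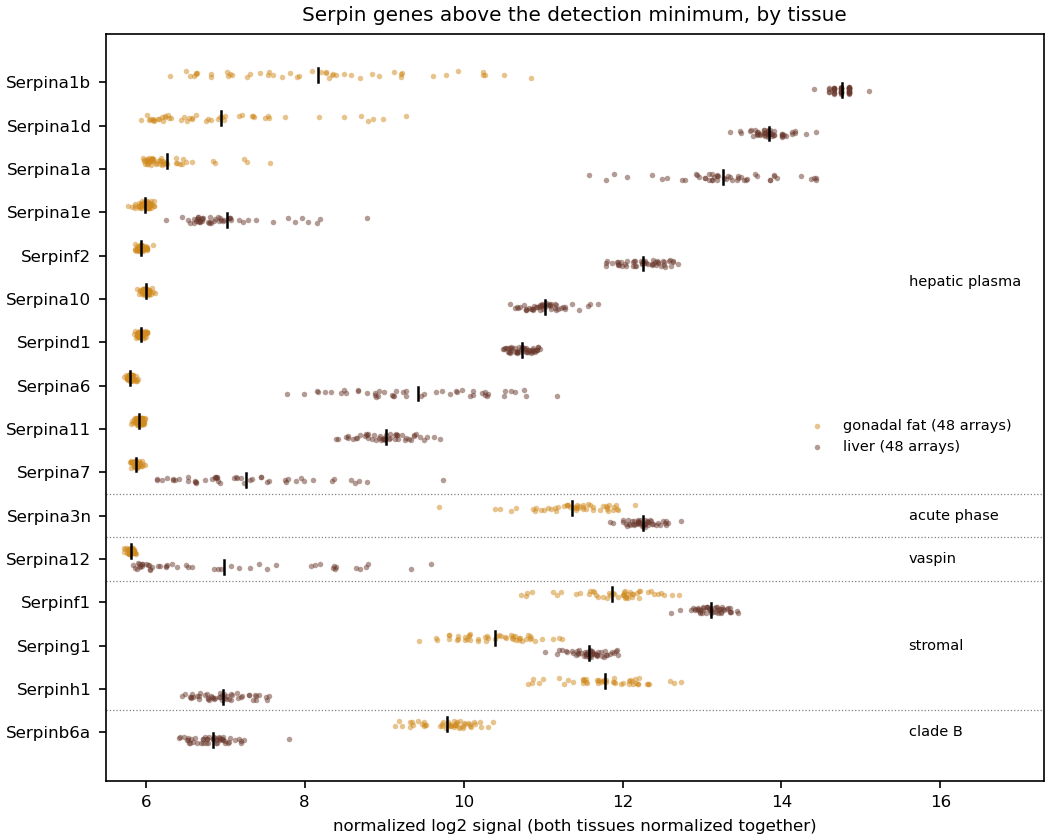
Normalized log2 signal (x axis) of the 16 serpin genes above the detection minimum, 1 point per array, gonadal fat above liver in each row, with a vertical bar at each mean. Serpina3n, Serpinf1 and Serping1 are well above background in both tissues, Serpinh1 and Serpinb6a are higher in fat, and Serpina1b and Serpina1d are spread over several units in fat, while 7 hepatic plasma genes, Serpina1e among them, and Serpina12 stay at background there.

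The α1-antitrypsins, inhibitors of neutrophil elastase, are encoded in the mouse by near-identical Serpina1 copies, so probes of 1 copy may also bind transcripts of another. Serpina1b had 6.30 as its lowest, 8.15 as its median and 10.85 as its highest level in fat, against 14.40, 14.75 and 15.11 in liver. The groups did not overlap, and the fat level was 6.59 ± 0.16 units lower (SE, limma adjusted p = 8e-61), a 96.5-fold difference. Serpina1d had a lowest, median and highest level of 5.94, 6.70 and 9.28 in fat, against 13.35, 13.83 and 14.44 in liver. Serpina1a ran from 5.96 through a median of 6.14 to 7.56 in fat, against 11.58, 13.24 and 14.44 in liver. The fitted differences were -6.90 for Serpina1d and -6.99 for Serpina1a, again with no overlap. Serpina1d was detected on 37 of 48 fat arrays and Serpina1a on 20, so background limits both values and they are not ranked against that of Serpina1b. Serpina1e was detected on 0 fat arrays and on 46 liver arrays, where it averaged 7.02 ± 0.53 (SD, n = 48), at least 1.75-fold above the fat level. On a liver array the Serpina1b probe took rank 2 to 10 among all probes by raw signal, so quantile normalization left it only 6 distinct values over the 48 liver arrays, and its liver spread is compressed.

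Apart from Serpina3n, the other hepatic serpins were at background in fat. Serpinf2, encoding α2-antiplasmin, the fast inhibitor of plasmin, was detected on 0 of 48 fat arrays and 48 of 48 liver arrays. Its level averaged 5.94 ± 0.05 in fat and 12.25 ± 0.25 in liver (SD, n = 48 each), at least 65.6-fold lower in fat. The second Serpinf2 probe, also detected on 0 fat arrays, averaged 8.10 in liver, so that this bound holds for the brighter probe. Serpina10, which with protein Z inhibits coagulation factor Xa, averaged 6.00 ± 0.04 in fat and 11.03 ± 0.25 in liver, at least 28.1-fold lower in fat. Serpind1, heparin cofactor II, an inhibitor of thrombin, averaged 5.94 ± 0.04 in fat and 10.73 ± 0.14 in liver and was at least 22.9-fold lower in fat. All 3 genes were detected on every liver array and on no fat array, a lower level in fat being built into their selection.

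The genes that follow had lower signals in liver. Since a bound is taken from the liver mean, their bounds are smaller by construction. Serpina6, corticosteroid-binding globulin, was at least 9.29-fold lower in fat, with 5.81 ± 0.04 in fat and 9.43 ± 0.86 in liver. Serpina11 was at least 6.98-fold lower, and Serpina7, thyroxine-binding globulin, at least 2.06-fold lower. Serpina12, vaspin, was detected on 0 of 48 fat arrays and on 28 of 48 liver arrays, and averaged 5.81 ± 0.03 in fat and 6.99 ± 1.12 in liver. The gene's second probe was detected on 0 arrays of either tissue. The tissues overlapped for vaspin, since some liver arrays were at background too. Each bound sets the liver mean against the higher of the fat signal and the lowest signal of a detected probe on each fat array.

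Serpina3n, an acute-phase relative of α1-antichymotrypsin, stood apart from the other plasma serpins. It was detected on all 96 arrays, with 9.69, 11.42 and 12.15 as its lowest, median and highest level in fat, against 11.84, 12.25 and 12.73 in liver. The ranges overlapped, and the fat mean was 0.89 ± 0.07 lower (SE, limma adjusted p = 1.58e-21), a 1.86-fold difference.

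Among the stromal serpins, Serpinh1 encodes HSP47, the chaperone of procollagen in the endoplasmic reticulum. Its lowest, median and highest levels were 10.82, 11.78 and 12.73 in fat, against 6.46, 6.95 and 7.56 in liver. Every fat array lay above every liver array, and Serpinh1 was 4.81 ± 0.08 higher in fat (SE, adjusted p = 4.14e-77), a 28.1-fold difference. Serpinf1, encoding pigment epithelium-derived factor, an antiangiogenic protein that inhibits no protease, had 10.72, 12.01 and 12.71 in fat, against 12.60, 13.11 and 13.45 in liver. Serping1, C1 inhibitor, which blocks the first complement proteases and plasma kallikrein, had 9.44, 10.43 and 11.23 in fat, against 11.02, 11.59 and 11.94 in liver. Both overlapped between the tissues and were lower in fat, Serpinf1 by 1.24 ± 0.07 and Serping1 by 1.19 ± 0.07 (SE), so that these genes, listed as stromal, were well detected in liver as well. Serpinb6a, an intracellular inhibitor whose human counterpart blocks cathepsin G, averaged 9.80 ± 0.30 in fat and 6.84 ± 0.25 in liver (SD, n = 48 each), 7.75-fold higher in fat without overlap.

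Proteases and partners of the serpins were taken from lists, and only genes that reached the detection minimum in both tissues are counted. Of the plasma target proteases and substrates this left 5 of 21, the other 16 having reached it in liver alone. All 5 were lower in fat, among them vitronectin, Vtn (-6.47), kininogen, Kng1 (-7.55), and the complement protease Masp1 (-2.83). Of other protease inhibitors it left 7 of 19, of which 2 were lower and 5 higher in fat, with Itih2 (-6.17), Timp2 (4.26) and Timp3 (3.49) having the largest statistics.

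Of collagens and collagen-folding enzymes it left 8 of 13, the other 5 having reached the minimum in fat alone. Of those 8, 6 were higher and 2 lower in fat, Col5a1 by 3.75, Col4a1 by 4.46 and Col4a2 by 4.04 higher. Plasminogen activators, receptors and tissue proteases were left with 3 of 10, of which urokinase, Plau, was 2.01 higher, and the thrombin receptor F2r (-0.27) and the receptor Lrp1 (-0.39) were lower in fat. Of the acute-phase genes 6 of 11 were left, and 5 of them were lower in fat, among them Orm2 (-3.81) and Orm1 (-2.51). None of the leukocyte and mast cell proteases reached the minimum in both tissues.

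The low Serpina1 signal in fat was set beside hepatocyte genes on the same arrays. Serpina1b was detected on 48 of 48 fat arrays, Serpina1d on 37 and Serpina1a on 20. Of 5 hepatocyte genes that averaged 13.14 to 15.25 in liver, Ttr was detected on 5 fat arrays, Apoa1 on 3, Apoa2 on 10, Ahsg on 8 and Cps1 on 1. The transcription factor gene Hnf4a, on the same marker list and at 11.45 in liver, was detected on 13 fat arrays and reached 9.06. Pck1, also on that list but made by fat cells too, was detected on all 48 fat arrays. The probes for Alb and Fgb were weak or undetected in liver itself (18 and 0 of 48 arrays) and say nothing about fat. On the 33 fat arrays with none of the 5 detected, Serpina1b ran from 6.32 through a median of 7.78 to 10.18, and it was detected on all 33. On the other 15, it ran from 7.67 through 8.97 to 10.71. With Hnf4a counted as well, 26 fat arrays had none of the 6 genes detected, and Serpina1b was detected on all 26, from 6.32 through 7.52 to 10.18, against 7.22, 8.60 and 10.71 on the other 22. The part of hepatocyte transcripts in the Serpina1 levels was not tested. These levels are after normalization within fat, as are all within-tissue levels that follow. A female and a male fat array had Apoa1 above 7, and both lay among the highest for Serpina1b.

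**Figure D2:**
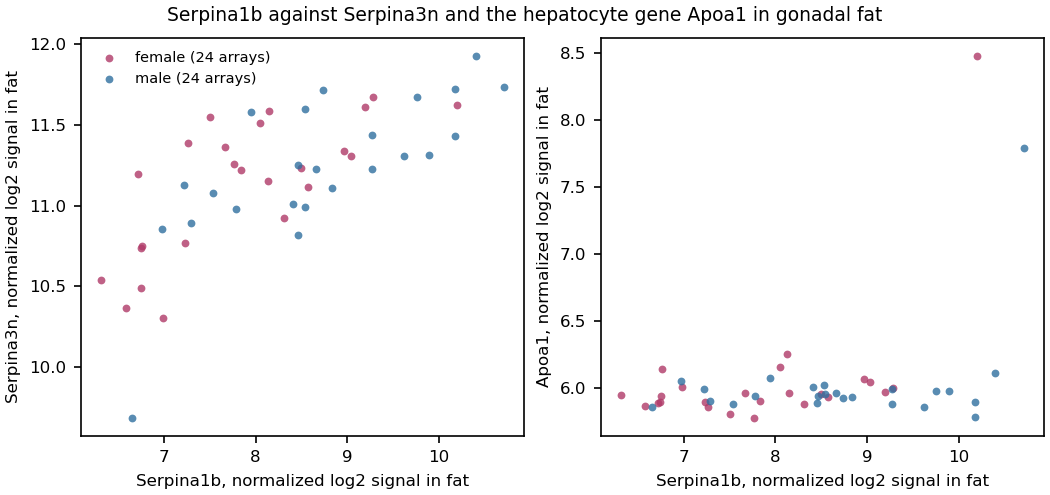
Level of Serpina3n (left) and of the hepatocyte gene Apoa1 (right) against Serpina1b on the 48 fat arrays, all as normalized log2 signal within fat, with females and males in separate colours. Serpina3n goes up with Serpina1b (r = 0.633 after removal of sex, class and scanning day), while Apoa1 lies near background on all but 2 arrays.

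Across fat arrays, Serpina1b and Serpina1d had the widest ranges of the 8 serpins tested there. Serpina1b spanned a 20.9-fold range and Serpina1d an 11.1-fold range, whereas the other 6 spanned from 2.10-fold (Serpinb6a) to 4.74-fold (Serpina3n), Serpina1a with 3.79-fold among them. After removal of sex, class and scanning day the SD was 0.89 for Serpina1b and 0.80 for Serpina1d, against a median of 0.17 over all probes tested in fat. In liver the widest ranges were those of Serpina6 (14.2-fold), Serpina12 (12.5-fold) and Serpina7 (11.9-fold), and the narrowest was that of Serpind1 (1.42-fold). Serpina1a also varied in liver, over a 7.41-fold range, with a residual SD of 0.47 against a median of 0.14 over all liver probes.

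The residuals of the 8 serpins in fat were then correlated in pairs, 28 in all, a family chosen after the values were seen. Serpina1b and Serpina1d went together (r = 0.943, rho = 0.948, permutation p adjusted over the 28 pairs 7e-05 for both, n = 48). Probes of these near-identical copies may bind each other's transcripts, and the part of that in this value was not tested. Serpina1b also went with Serpina3n (r = 0.633, rho = 0.646, adjusted permutation p = 7e-05 for both), between r = 0.389 and 0.812 on the 4 scanning days, and r was 0.597 without the 2 arrays farthest from the median. With Serpinf1 the value was lower (r = 0.437, adjusted permutation p = 0.00688, rho = 0.458, adjusted permutation p = 0.00527). Serpinf1 and Serpinh1 had r = 0.433 (adjusted permutation p = 0.00784, rho = 0.372, adjusted permutation p = 0.0297), and Serpina1b with Serping1 did not pass (r = -0.18, adjusted permutation p = 0.324, rho = -0.16, adjusted permutation p = 0.39).

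Relations with partner genes were also computed, as a family of 3. In liver, Serpina3n went with the mean of the acute-phase genes Saa1, Saa2 and Orm1 (r = 0.802, rho = 0.775, permutation p = 3e-05 for both after adjustment over the 3, the smallest that 100000 resamples can give there, n = 48). On the 4 scanning days r lay between 0.684 and 0.914, and it was 0.729 without the 2 mice farthest from the median. In fat, Serpina3n and the mean of Saa3, Lcn2 and Hp had r = 0.320 (adjusted permutation p = 0.0264, rho = 0.316, adjusted permutation p = 0.0294), and the p was 0.0532 without the 3 arrays per tissue least correlated with the rest. Serpinh1 in fat went with the mean of Col1a1, Col1a2 and Col3a1, the chains its protein helps to fold (r = 0.449, adjusted permutation p = 0.00197, rho = 0.402, adjusted permutation p = 0.0075), although r ran from -0.13 to 0.858 over the days. Between fat and liver of the same mouse, 2 of 8 serpins passed by Pearson's r, Serpina1b (r = -0.36) and Serpinb6a (r = -0.36), each with adjusted permutation p = 0.0486. Neither passed by rank (rho = -0.26 and -0.25, adjusted permutation p = 0.353 for both), and none passed without the 2 mice farthest from the median.

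Sex was compared next, in liver first. Of 16 serpin genes, 3 were higher and 6 lower in females, where 16.7% of the 8504 probes tested were higher in females and 17.4% higher in males. The median female minus male difference was -0.12 over the serpins and -0.0032 over all probes. Serpina6, corticosteroid-binding globulin, had 9.18, 10.24 and 11.33 as its lowest, median and highest level in female livers, against 7.50, 8.70 and 9.49 in male livers. Few arrays overlapped, and females were 1.68 ± 0.13 higher (SE, limma adjusted p = 2.63e-14), a 3.21-fold difference. On each of the 4 days the difference of the means was between 1.46 and 2.13. Such day values, here and below, are not adjusted for class, and the sexes on a day were of different classes.

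Serpina12, vaspin, went the other way. It was detected in 4 of 24 female livers and 24 of 24 male livers, with 5.95, 6.11 and 6.48 in females, against 6.30, 7.86 and 9.59 in males. The gene's second probe was detected on 0 liver arrays, so that these values rest on the brighter probe alone. The fitted difference was -1.53 ± 0.18 (SE, adjusted p = 5.07e-09), a value limited by background, since the probe was not detected on 20 of 24 female arrays. Serpina7, thyroxine-binding globulin, which lies on the X chromosome, had 6.18, 6.51 and 8.64 in female livers, against 6.44, 7.48 and 9.75 in male livers. The ranges overlapped widely, and females were 0.79 ± 0.20 lower (adjusted p = 0.00189), while its second probe gave -0.55 (adjusted p = 0.0012).

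**Figure D3:**
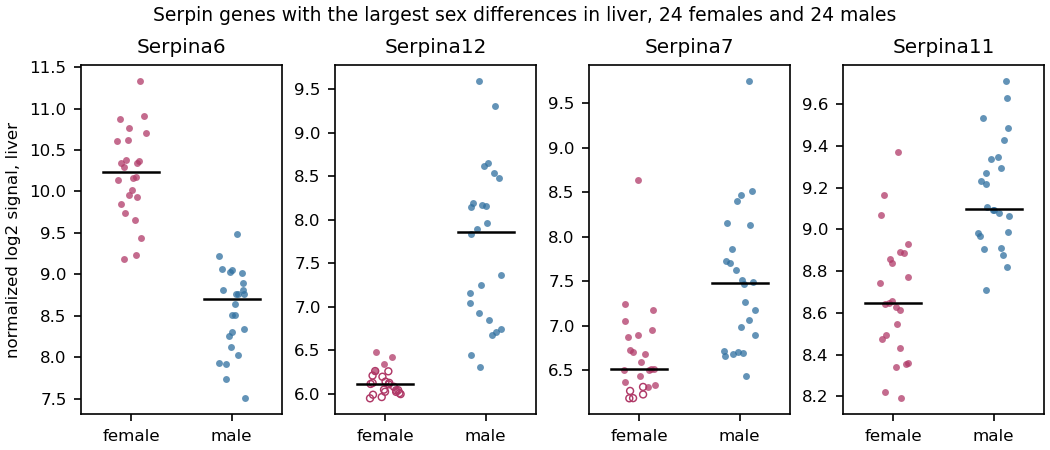
Normalized log2 signal in liver (y axis, 1 scale per gene) of Serpina6, Serpina12, Serpina7 and Serpina11 in 24 females and 24 males, 1 point per array, open where the probe was not detected, with a bar at the median. Serpina6 is higher in females and the other 3 genes are lower, with female Serpina12 at background on 20 of 24 arrays.

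The remaining liver differences were small. Serpina11 was 0.37 ± 0.07 lower in females (SE, adjusted p = 1.67e-05), on all 4 days. Serpinb6a was 0.18 and Serpinf2 0.13 higher, and Serpinh1 0.19 lower, in females (adjusted p = 0.00685, 0.0441 and 0.033). All 3 lost the threshold without scanning day 2, as did Serpina1d, which was 0.18 lower (adjusted p = 0.0105), and 5 serpins then passed in place of 9. By its second probe Serpinf2 gave 0.066 and did not pass (limma adjusted p = 0.492). Serpina1b was 0.20 ± 0.03 lower in females (adjusted p = 8.36e-08) by its brightest probe, whose values were compressed as described, but by -0.05 and -0.07 with its 2 other probes (adjusted p = 0.342 and 0.375). Conversely Serpina1a did not pass with its brightest probe (-0.13, adjusted p = 0.545) and passed with its second (-0.44, adjusted p = 0.0249). Serpina3n, Serpind1, Serpina10, Serpina1e, Serpinf1 and Serping1 did not pass, with fitted differences from -0.12 to 0.09.

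Among 24 male livers, Serpina12 varied over more than 3 log2 units, and 6 pairs of the 4 genes with the largest sex differences were correlated, chosen after seeing the values. Serpina12 went against Serpina7 (r = -0.58, rho = -0.52, permutation p adjusted over the 6 pairs 0.0181 and 0.0319), with r = -0.47 without the 2 mice farthest from the median and r from -0.85 to 0.121 over the days, on each of which there were few males. Serpina6 went with Serpina7 (r = 0.531, adjusted permutation p = 0.023, rho = 0.455, adjusted permutation p = 0.0528). Serpina12 with Serpina6 passed by rank but not by Pearson's r (r = -0.44, adjusted permutation p = 0.066, rho = -0.56, adjusted permutation p = 0.0302). The 3 pairs with Serpina11 lay between r = -0.10 and 0.012 and did not pass.

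Beside these, the list of plasma target proteases had 7 genes higher and 4 lower in female livers of 21 tested, with Hgfac 0.45, Kng1 0.30 and F7 0.48 higher. Other protease inhibitors had 7 higher and 1 lower of 15, Ahsg by 0.44 and Itih1 by 0.23 higher and Mug1 by 0.69 lower. Of the collagen list, 1 was higher and 4 were lower of 8, and of the acute-phase list 1 was higher and 4 were lower of 11.

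In fat, 6 of 8 serpins differed by sex, 3 higher and 3 lower in females, where 12.1% of the 10217 probes tested were higher in females and 10.5% higher in males. By role, 2 of the 3 stromal genes were higher and 3 of the 4 hepatic plasma genes were lower in females. Those 3 plasma genes are the near-identical copies Serpina1a, Serpina1b and Serpina1d, which are not separate evidence, and the other, Serpina3n, did not pass. Serpinh1 had 11.31, 11.91 and 12.51 as its lowest, median and highest level in female fat, against 10.68, 11.33 and 11.86 in male fat. The ranges overlapped, and females were 0.60 ± 0.09 higher (SE, adjusted p = 3.52e-06), between 0.52 and 0.66 on the 4 days. Serpinf1 had 10.60, 11.91 and 12.49 in female fat, against 10.65, 11.48 and 12.26 in male fat, and was 0.54 ± 0.10 higher in females (adjusted p = 4.17e-05). Serpinb6a was 0.25 ± 0.07 higher in females (adjusted p = 0.0047), and Serping1, with a difference of 0.17 ± 0.08 (adjusted p = 0.112), did not pass.

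The α1-antitrypsins were lower in female fat. Serpina1b had 6.32, 7.80 and 10.20 in female fat, against 6.65, 8.60 and 10.71 in male fat. The sexes overlapped over most of their range, and females were 0.86 ± 0.28 lower (SE, adjusted p = 0.0236), a 1.81-fold difference that its 2 other probes also gave (-0.96 and -0.81, adjusted p = 0.0113 and 0.0221). Serpina1d was 0.69 ± 0.25 lower and Serpina1a 0.30 ± 0.11 lower (adjusted p = 0.0436 and 0.038), the second being detected on 5 of 24 female and 15 of 24 male fat arrays. By scanning day the difference of the means ran from -1.51 to 0.15 for Serpina1b and from -1.33 to 0.034 for Serpina1d. For Serpina1a it ran from -0.87 to -0.058. Fat arrays of day 3 had 6582 to 9302 detected probes, against 8197 to 10002 on the other days. Without scanning day 3, none of the 3 α1-antitrypsin genes passed, at -0.70 for Serpina1b (adjusted p = 0.227), -0.52 for Serpina1d (adjusted p = 0.316) and -0.077 for Serpina1a (adjusted p = 0.776), nor did Serpinb6a, and the count fell to 2, Serpinh1 and Serpinf1. It was 3 without day 8, and 6 without the fat array that had epididymal transcripts or without the 2 with Ttr and Apoa1 above the rest. Serpina3n did not pass (-0.07 ± 0.11, adjusted p = 0.68).

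**Figure D4:**
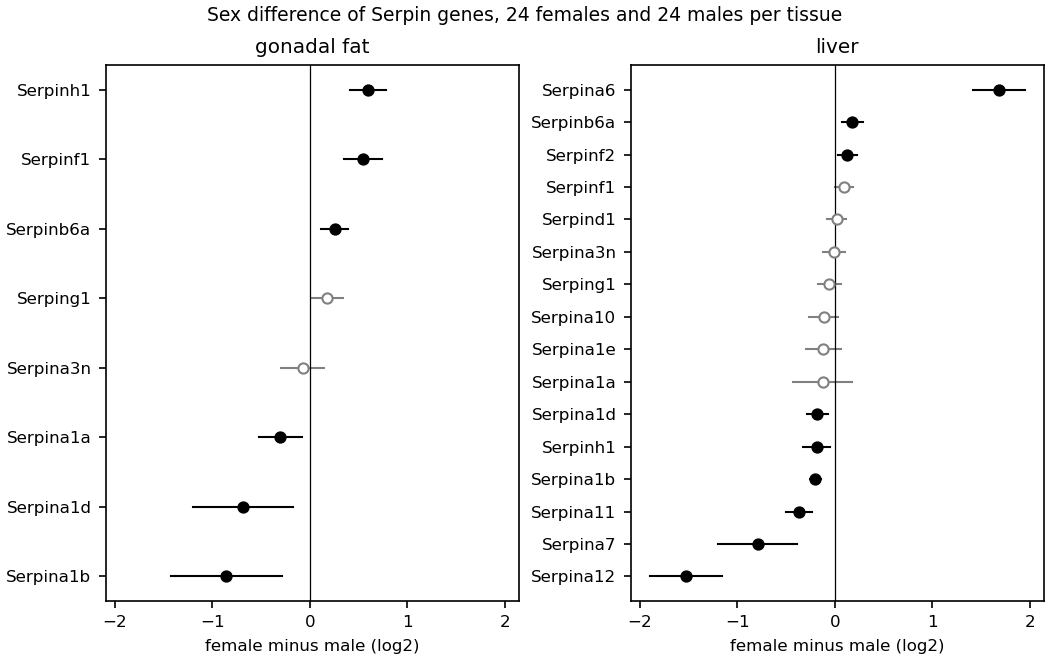
Fitted female minus male difference (log2, x axis) of each tested serpin gene in gonadal fat (left) and liver (right), with 95% intervals from limma, filled where the adjusted p is under 0.05. Serpina6 (1.68) and Serpina12 (-1.53, limited by background in females) stand out in liver, while in fat Serpinh1 and Serpinf1 lie to the right of 0 and the Serpina1 genes to the left.

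Other genes moved with these. All 8 stromal fibroblast markers were higher in female fat, by a median of 0.53, with a summed linear level of 8114 to 16787 (median 10429) in females and 6807 to 10668 (median 7820) in males, and none of them was at background. Of the collagen list, 10 of 13 were higher in female fat and none lower, Col1a1 by 1.10, Col6a1 by 0.66 and Plod1 by 0.41. The part of the stromal share in the Serpinh1 and Serpinf1 differences was not tested. The summed hepatocyte markers had a median of 760 in female and 1069 in male fat, over ranges of 609 to 2977 and 611 to 2063. This sum holds Pck1, which fat cells make too and which had a median log2 level of 8.47 in fat. The other markers in the sum had fat medians near background, so that the sum is not one of hepatocyte transcripts alone. Of the 2 markers tested in fat, Hnf4a was lower in females (-0.47, adjusted p = 0.0387) and Pck1 did not pass (-0.22, adjusted p = 0.495). Markers of other cell types moved too. Of 5 mesothelial markers tested, Krt8 (-0.97, adjusted p = 0.000806) and Krt18 (-0.59, adjusted p = 0.0107), which other epithelia also make, were lower and Wt1 was higher (0.91, adjusted p = 0.000506) in female fat. Of 4 endothelial markers 2 were higher, Pecam1 by 0.38 (adjusted p = 0.00321) and Emcn by 0.18, of 4 macrophage markers 1 was higher (Mrc1, 0.20), and of 9 adipocyte markers 1 was lower (Plin1, -0.48). The skeletal muscle gene Acta1 was 2.42 higher (adjusted p = 2.98e-05). The pancreatic gene Cela1 was 0.43 lower and the haemoglobin gene Hba-a1 0.35 lower, and none of the 6 leukocyte markers tested passed. Their part in the serpin differences was not tested. Of other protease inhibitors, 6 of 11 were lower in female fat and none higher, among them Timp4 (-1.02), Slpi (-1.29) and Spint1 (-0.80). Kininogen, Kng1, a substrate of plasma kallikrein, was 1.46 higher in female fat, and of the plasminogen activator list 3 of 8 were higher and 2 lower, with Plat 0.46 and Htra1 0.35 higher and the thrombin receptor F2r 0.52 lower.

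The difference between these sex effects was tested itself, as fat minus liver, over the 96 arrays normalized together. It passed for 2 of the 8 serpins measured in both tissues, Serpinh1 and Serpinf1, where 27.7% of all probes passed. Serpinh1 differed by 0.86 ± 0.13 (SE, adjusted p = 1.5e-07), being higher in female fat and lower in female liver, and Serpinf1 by 0.48 ± 0.11 (adjusted p = 0.000456). Serpina6 (-1.47), Serpina12 (1.77), Serpina11 (0.32) and Serpina7 (0.86) also passed, but these 4 genes were detected on 0 fat arrays, so that the liver difference alone set those values. Serpina1b (-0.76, adjusted p = 0.0541) did not pass.

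The haplotype classes gave no call. By limma's F-test over the 4 classes, 0 of 8 serpins passed in fat, where 0.401% of probes did, and 0 of 16 passed in liver, where 0.317% did. At an unadjusted p under 0.05 there were 7 of 8 in fat, against 12.9% of all probes tested in fat, and 0 of 16 in liver. Serpina1b in fat had the smallest p (0.00743, adjusted p = 0.214), with fitted levels of 8.10 ± 0.83, 7.59 ± 0.75, 8.87 ± 0.95 and 8.59 ± 1.10 in classes 1, 2, 3 and 4 (SD, n = 12 each). Serpinb6a followed (p = 0.00799, adjusted p = 0.223), with 9.74 ± 0.23, 9.61 ± 0.24, 9.92 ± 0.21 and 9.84 ± 0.13 in the same order. All 7 genes had their lowest fitted level in class 2, and their classes overlapped. The levels of some cell type markers in fat also varied between classes. None of the hepatocyte, adipocyte and macrophage markers tested there passed the F-test by class, Lep having the smallest adjusted p (0.148). None of the 5 hepatocyte genes was detected on 9, 10, 5 and 9 of the 12 fat arrays in classes 1, 2, 3 and 4. The summed linear level in fat of the hepatocyte markers, Pck1 included, had medians of 978, 829, 1090 and 951 in the same order. That of the adipocyte markers had 29842, 28151, 31711 and 34808, and that of the macrophage markers 2783, 2308, 2648 and 2756. These 3 sums were each lowest in class 2, as were the stromal fibroblast, endothelial and pancreas and muscle sums. The mesothelial sum was highest there (1350, 1472, 1240 and 1348). The leukocyte, blood, epididymis and testis, and ovary and uterus sums were not lowest there. Their part in the class pattern was not tested.

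**Figure D5:**
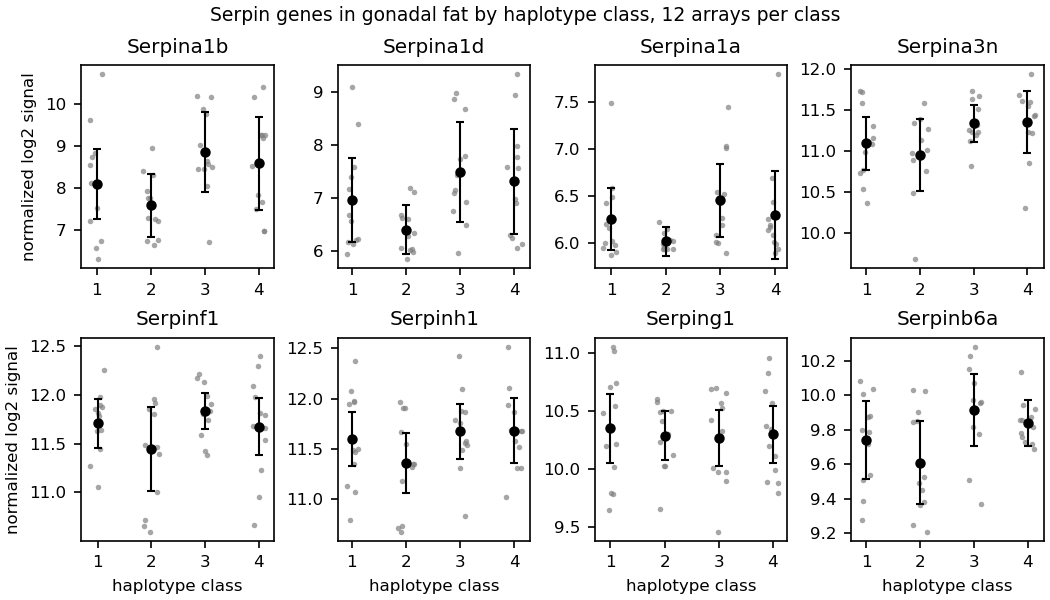
Normalized log2 signal of the 8 serpin genes tested in fat (y axis, 1 scale per gene) by haplotype class, with grey points for the 12 arrays of a class and black points with bars for the fitted level ± SD after removal of sex and scanning day. Class 2 has the lowest fitted level for all genes but Serping1, and the classes overlap for each gene.

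That count moved with few arrays. Leaving out the 3 fat arrays whose correlation with the others was lowest made it 3; of those arrays, 2 were of class 2 males. It was 5 without the one of them that had epididymal transcripts. It was 1 without scanning day 8, 3 without day 4 and 4 without day 7. The 8 genes are not separate evidence, since Serpina1a, Serpina1b and Serpina1d share near-identical sequence. Serping1, the only serpin of the array on chromosome 2, had 10.35 ± 0.30, 10.29 ± 0.21, 10.27 ± 0.24 and 10.30 ± 0.25 in fat for classes 1 to 4 (p = 0.877). In liver Serpina12 had the smallest p (0.0577, adjusted p = 0.946). A difference of the class effect between tissues was called for none of 16 serpins (0.179% of probes passed). Of the 16, 8 were detected on 0 fat arrays, so that only the 8 measured in both tissues inform this test. An unadjusted p under 0.05 was found for 3 of those 8, Serpina1b, Serpina1d and Serpinb6a. An interaction of sex and class passed for 0 of 8 serpins in fat and 0 of 16 in liver, where limma called 0% of all probes in either tissue, with 0 and 1 serpins and 685 and 573 probes at an unadjusted p under 0.05.

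Among protease inhibitors outside the serpins, class differences did pass. Slpi, secretory leukocyte protease inhibitor, which like α1-antitrypsin blocks neutrophil elastase, averaged 9.31 ± 0.99, 10.07 ± 0.73, 6.94 ± 0.59 and 9.35 ± 0.77 in fat of classes 1 to 4 (adjusted p = 1.11e-08). Class 3 was the low one, by more than 2 units. Timp4, an inhibitor of metalloproteinases, averaged 9.08 ± 0.56, 8.43 ± 0.54, 9.37 ± 0.37 and 9.26 ± 0.48 in fat (adjusted p = 0.0412). In liver Cst3, cystatin C, an inhibitor of cysteine proteases, averaged 10.73 ± 0.30, 10.65 ± 0.30, 10.16 ± 0.47 and 9.69 ± 0.36 (adjusted p = 1.63e-05). Slpi and Cst3 lie on chromosome 2 and Timp4 on chromosome 6. Those were 2 of 11 other inhibitors tested in fat and 1 of 15 in liver.

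Of the serpins under the detection minimum, Serpinb6b was detected on 6 fat arrays, Serpina1f and Serpina5 on 2 each, and Serpina16 and Serpinb8 on 1 each. Serpina16 and Serpina1f reached 11.05 and 11.13 on 1 male class 2 array of scanning day 7, where the epididymal gene Adam7 reached 12.99. The next highest male fat array had 6.00 for Serpina16 and 7.26 for Serpina1f, with that Serpina1f value in class 3 on day 3, and the highest female fat arrays had 6.03 and 6.04. The epididymal genes Lcn8 and Gpx5 had their highest levels, 9.33 and 6.98, on a male class 4 array of day 8. The gonadal fat pad of the male adjoins the epididymis, and the class 2 array of day 7 was also the one with the lowest median correlation with the other fat arrays, 0.933.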

How the data were processed

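Illumina bead arrays measured gonadal fat and liver of 48 mice. The deposited probe intensity values are the authors' bead-summarised signals, neither background-corrected nor normalized, and the deposited detection column, headed as a p-value in the file, held 1 minus the p-value and was turned back. The authors' deposited log2 matrix, made with lumi per the submitters' processing notes, served as an alternative, and neither its version nor the normalization used in it is given in the sources used here. The signals went through neqc (offset 16) of limma 3.58.1 in R 4.3.3, over all 96 arrays for tissue comparisons and within each tissue for sex and class. Of 46116 probes, 29534 were named by 1 symbol, 11 by several and 16571 by none, through the platform annotation, and 29476 named probes matched RefSeq by gene identifier. Probes detected (p under 0.01) on at least 12 arrays were tested with lmFit and eBayes with a trend, Benjamini-Hochberg threshold 0.05 over all probes tested: 11718 over both tissues, 10217 in fat and 8504 in liver. Tissue was fitted with sex and class, and sex and class with scanning day. Levels by sex or class are adjusted for the other terms; lowest, median and highest levels are not. Correlations used residuals and 100000 resamples (Python 3.11.15, scipy 1.17.1). The number of arrays limits the precision.

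Values are printed for every serpin gene above the detection minimum and, from each list, up to 3 genes past the threshold with the largest statistic, in the tissue comparison among genes above the minimum in both tissues, a restriction added after the values were seen; genes named outside that rule (F2r, Plat, the epididymal and hepatocyte genes, cell type markers by sex) were chosen after their values were seen. The members, lists and tests were chosen with earlier results of these data known. The mouse number in the labels pairs the fat and liver arrays of an animal. Their deviations from the group means had a median correlation of 0.084 (range -0.14 to 0.286), against -0.0022 for different mice. The fits for tissue, sex and class were tested on simulated data, and those for the interactions and the mouse block were not.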

Additional observations from a re-analysis of the deposited data

Results flagged for a closer look

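For 6 serpins the sex difference itself differed between fat and liver by a test of the interaction. The fat minus liver difference of the female minus male differences was 0.86 for Serpinh1, 0.48 for Serpinf1, 1.77 for Serpina12, -1.47 for Serpina6, 0.86 for Serpina7 and 0.32 for Serpina11 (log2). Serpina12, Serpina6, Serpina7 and Serpina11 were detected on 0 of 48 fat arrays, so that for those 4 the liver difference alone enters. Groups of 12 arrays per class were too large for the check for single outlying samples used here, which covers groups of 4 to 10.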

How the results depend on the processing

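The count of serpins that differed between fat and liver was 16 under each alternative but 1, in which no filter on detection brought 23 calls. Of the 16, 8 were tested through liver alone, so that their lower level in fat was built into their selection and only the other 8 inform this count. No value past the threshold changed direction under any alternative run. Leaving out 1 scanning day at a time, the number of serpins with a sex difference ran from 5 to 9 in liver and from 2 to 5 in fat, the number with an unadjusted class p under 0.05 in fat from 1 to 5, and the number with an interaction of tissue and class from 0 to 1, the 1 being Serpina1b without day 3. The unadjusted class count was 3 without the 3 arrays of each tissue least correlated with the rest and 4 with no scanning day term. Correlations of fat with liver passed for 0 serpins with the deposited log2 matrix, 0 without the 2 mice farthest from the median and 1 without the 3 least correlated arrays per tissue. The cause of these shifts was not tested. With no filter on detection, more probes share the adjustment, and the sex differences of Serpina1a, Serpina1b and Serpina1d in fat and of Serpinf2 and Serpinh1 in liver missed the threshold. With the mouse as a replicate block (the pairing by animal), 16 serpins differed by tissue, the 8 tested through liver alone among them. With that block, 6 had an interaction of tissue and sex and 0 an interaction of tissue and class, so that the block changed no call. Of single-gene values, 32 lost and 9 gained the threshold under some alternative, and 1557 kept their side. Alternatives that leave out the fat arrays with epididymal or hepatocyte transcripts were chosen after seeing the data. The planned relation of Serpina6 with Serpina3k was not run, because no probe was listed for Serpina3k. Near background the offset compresses differences, and 7 hepatic serpins and vaspin have only a bound in fat.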
